A study of Mus musculus with 12 samples.

Results

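The mitochondrial ribosomal protein genes are the nuclear genes named Mrpl or Mrps with a number. The array carried 77 of them as transcript clusters of their own, among 19938 genes with such a cluster. By symbol, 48 of the 77 belong to the large subunit (Mrpl) and 29 to the small subunit (Mrps). Where a gene had more than 1 cluster, as 8 of these genes did, the cluster with the highest mean was taken, and 1 further cluster was left out because it also names a second gene, Ccdc142, beside Mrpl53.

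Hippocampal RNA was compared between 6 Madison (MSN) and 6 hsd:ICR (ICR) mice, all untreated adult males about 10 weeks old, singly housed and each measured on its own Mouse Gene 1.0 ST array. MSN is a highly inbred strain with a manic behavioral phenotype, and ICR is the outbred stock from which it was derived. The MSN ancestors were selected for wheel running and then for maternal defense, and later bred without selection. The paper proposes that genetic drift gave rise to many of the genetic changes behind the MSN phenotype. The strains differ across the genome, and no single allele is manipulated in either of them. The hippocampi were dissected by hand, so an array value is a mean over all cells of the tissue.

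Mitochondria carry their own ribosomes, which translate the few membrane subunits of the respiratory chain and of ATP synthase that mitochondrial DNA encodes. All proteins of these ribosomes are encoded in the nucleus, made in the cytosol and imported, where they join ribosomal RNA that comes from mitochondrial DNA. Some descend from the bacterial ancestor and others were added later, and neurons, with their high demand for ATP, depend on the products.

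In MSN hippocampus 1 of the 77 genes passed the test, and it was lower. Mrpl20, a large-subunit protein whose bacterial counterpart binds ribosomal RNA early in assembly, fell to 0.60 times the ICR level. No member rose, and 76 of 77 did not pass. The test was limma on log2(intensity + 16) with Benjamini-Hochberg adjustment over 23410 clusters, of which 0.777% passed at an adjusted P-value under 0.05. Otherwise most members differed little between the strains, as did most genes. A log2 fold change, MSN over ICR, within 0.1 of 0 was found for 67 of 77 members and for 16165 of 19938 genes. Their median log2 fold change was 0.01, beside -0.01 over all genes with 1 cluster each, and 44 of 77 (57.1%) lay above 0, beside 45.3% of all genes. The 95% interval of the log2 fold change lay between -0.2 and 0.2 for 66 of the 77 genes, which was not counted over all genes.

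**Figure D1:**
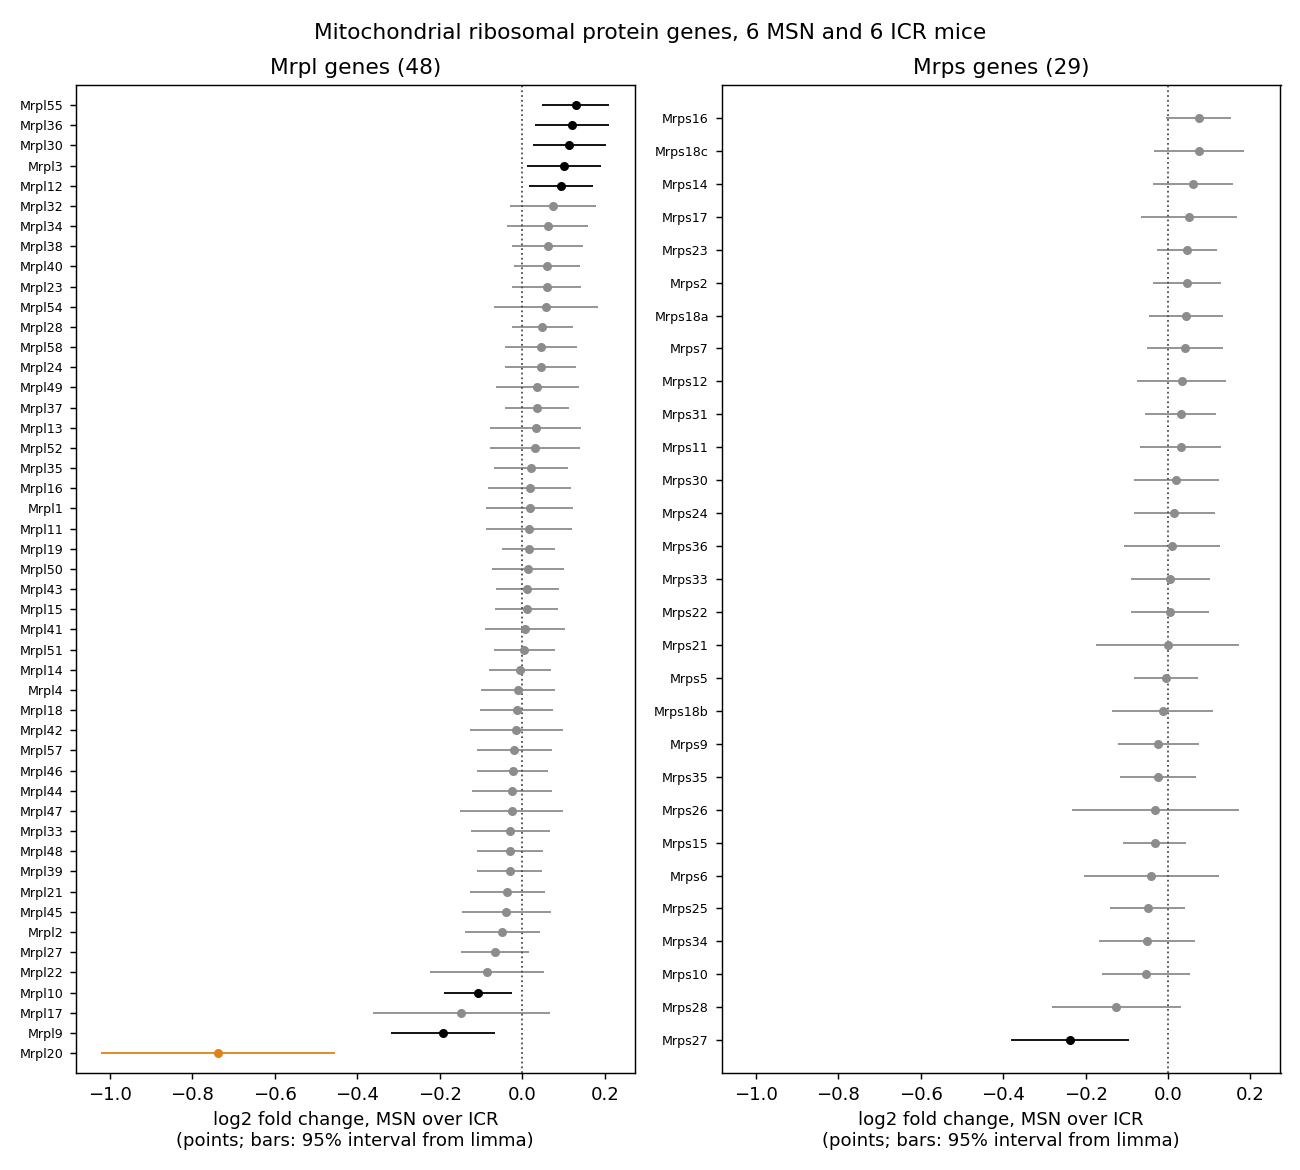
log2 fold change of each of the 77 mitochondrial ribosomal protein genes, MSN over ICR (x axis), with its 95% interval from limma (bars), for 48 Mrpl genes (left) and 29 Mrps genes (right). Mrpl20 (orange, -0.74) passed the test, the black genes had an unadjusted P-value under 0.05, and the gray genes had neither and lie between -0.15 and 0.08.

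The 12 values of Mrpl20 show a strain difference that 1 mouse did not share. The gene lies on the plus strand of chromosome 4 (chr4:155802878-155808831, GRCm38.p6). In the 6 MSN mice its intensities were 446.9, 727.1, 435.5, 425.5, 469.0 and 409.5, in replicate order, and in the 6 ICR mice they were 881.7, 693.8, 897.2, 920.2, 856.4 and 624.5. MSN replicates 1, 3, 4, 5 and 6 lay below every ICR mouse, while MSN replicate 2 lay above ICR replicates 2 and 6, so that the strains overlapped. The mean ± SD was 485.6 ± 120.0 for MSN and 812.3 ± 122.4 for ICR mice (n = 6 each). This was a log2 fold change of -0.74 (95% interval -1.02 to -0.46, standard error (SE) 0.132, limma adjusted P-value = 0.0195). A two-sided exact permutation test of the log2 values gave P-value = 0.00649, where the smallest that 6 against 6 mice allow is 0.00216. This P-value was not adjusted for the number of genes. In bulk tissue, fewer cells of a type and less RNA per cell cannot be told apart. The paper states that sequence changes where probes bind may have affected some genes, and this was not tested for Mrpl20.

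The call of Mrpl20 was lost in some settings. With the replicate number as a block the adjusted P-value was 0.0769, on untransformed intensities it was 0.0523, without MSN replicate 3 it was 0.0507 and without MSN replicate 4 it was 0.0523. Without MSN replicate 2 the log2 fold change was -0.86 and the adjusted P-value 0.00218, and the direction was downward in every setting run.

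The bases before the start of Mrpl20 are shown because it is the member that passed. Those of Mrpl3 and Mrpl10 were picked because each holds 1 of the motifs searched. Nuclear respiratory factor 1 (NRF1), the ETS-family factor GABP and YY1 are known regulators of nuclear genes for mitochondrial proteins. Letters of their motifs were searched on both strands: GCATGCGC for NRF1, CCGGAAG for ETS/GABP and AAGATGGC for YY1. Neighboring NRF1 matches on opposite strands can overlap, since GCATGCGC and its reverse complement GCGCATGC share the letters GCATGC. The sequences are from RefSeq (GRCm38.p6), each 250 bases on the plus strand that end at the base before the start, with motif letters in capitals. The positions are chr4:155802628-155802877 for Mrpl20, chr9:105053018-105053267 for Mrpl3 and chr11:97041332-97041581 for Mrpl10.
Mrpl20: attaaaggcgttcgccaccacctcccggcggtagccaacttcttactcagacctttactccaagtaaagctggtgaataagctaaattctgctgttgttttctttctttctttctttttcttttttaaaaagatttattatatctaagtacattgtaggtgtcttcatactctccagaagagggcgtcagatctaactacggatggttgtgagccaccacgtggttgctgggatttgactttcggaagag
Mrpl3: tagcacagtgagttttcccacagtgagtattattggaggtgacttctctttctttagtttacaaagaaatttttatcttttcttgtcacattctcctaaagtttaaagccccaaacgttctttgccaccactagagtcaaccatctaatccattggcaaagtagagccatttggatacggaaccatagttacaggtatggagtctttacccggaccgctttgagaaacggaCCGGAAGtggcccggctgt
Mrpl10: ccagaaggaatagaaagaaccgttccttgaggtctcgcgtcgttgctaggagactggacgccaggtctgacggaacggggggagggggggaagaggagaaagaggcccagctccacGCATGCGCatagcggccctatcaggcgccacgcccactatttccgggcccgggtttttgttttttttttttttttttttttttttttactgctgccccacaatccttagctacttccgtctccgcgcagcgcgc
Mrpl20 had none of these motifs in its window, Mrpl3 had CCGGAAG starting 19 bases before its start and Mrpl10 had GCATGCGC starting 134 bases before its start. RefSeq promoters, 250 bases before to 50 after a start, were found for 68 of the 77 members. The ETS/GABP letters stood in a promoter of 25 of these 68 genes (36.8%), against 9.93% of 27025 genes with a promoter. The YY1 letters stood in 12 of 68 (17.6%, against 3.19%) and the NRF1 letters in 8 of 68 (11.8%, against 3.05%). Counted only in the bases before the start, the YY1 letters stood in 4 of 68 (5.88%, against 1.83% of all genes), the ETS/GABP letters in 17 of 68 (25.0%, against 7.83%) and the NRF1 letters in 8 of 68 (11.8%, against 2.56%). Among the other members with an unadjusted P-value under 0.05, Mrpl9 held NRF1 letters, Mrpl36 held YY1 letters and Mrps27 held both ETS/GABP and YY1 letters. The bases before the start of Mrpl55 held none of these letters. By motif, the median log2 fold change was -0.06 in members with NRF1 letters (0.02 in those without), 0.00 with ETS/GABP letters (0.02 without) and 0.03 with YY1 letters (0.00 without). These medians were not tested, and a match of letters is not a binding site.

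Before adjustment, 9 members had a P-value under 0.05, 5 of them with the higher and 4 with the lower mean in MSN mice. These are 11.7% of the members, beside 12.6% of all genes with 1 cluster each, and over all clusters 5.18% were higher and 7.5% lower at this threshold. Other than Mrpl20, all 8 failed the adjustment, with adjusted P-values of 0.134 (Mrps27) to 0.318 (Mrpl3) from limma. Of these 9 genes 8 belong to the large subunit, and 1, Mrps27, to the small subunit. Complete separation of the strains was seen in 0 of 77 members, beside 1.44% of all clusters. At so small a share, 0 of 77 does not set the members apart.

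**Figure D2:**
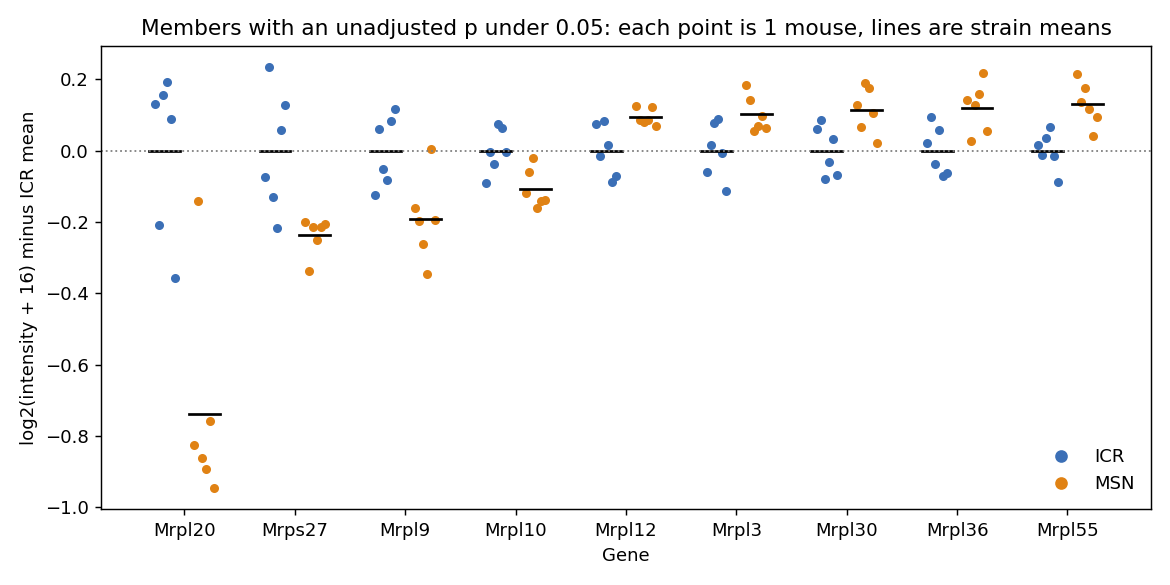
Values of the 9 members with an unadjusted P-value under 0.05, as log2(intensity + 16) relative to the ICR mean (y axis), by gene (x axis). Points are mice, blue for ICR and orange for MSN, and lines are strain means. In Mrpl20, 5 MSN mice lie far below the ICR mice and 1 lies among them, while in the other 8 genes the strain means are at most 0.24 apart.

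In the large subunit by symbol (Mrpl), 28 of 48 genes lay above 0 and the median log2 fold change was 0.01. The 29 measured proteins with bacterial counterparts held 7 of the 9 genes at an unadjusted P-value under 0.05, 4 higher and 3 lower, and Mrpl20 was the 1 that passed. These 7 were 24.1% of the list, beside 12.6% of all genes with 1 cluster each. Of the 18 measured large-subunit proteins particular to mitochondria, 0 passed in limma and 0 had an unadjusted P-value under 0.05. Their log2 fold changes ranged from -0.04 to 0.06. The difference between these lists was not tested. Mrpl55, which was in neither list, is not counted here. It had a log2 fold change of 0.13 and an unadjusted P-value under 0.05.

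Mrpl9, the counterpart of a bacterial protein at the base of the L1 stalk, was the next lowest large-subunit gene by log2 fold change. Its intensities ran from 470.8 to 604.5 with a median of 524.1 in MSN mice and from 551.3 to 654.7 with a median of 604.9 in ICR mice. MSN replicate 5 was the highest of its strain and lay among the ICR mice, while the others lay below all of them. The log2 fold change was -0.19 (SE 0.0589, limma adjusted P-value = 0.171), which did not pass.

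The stalk of the large subunit recruits translation factors, and its 3 genes did not lean one way. Mrpl10, which anchors the stalk, read 2004 ± 77.4 in MSN and 2159 ± 92.7 in ICR mice (SD, n = 6), a log2 fold change of -0.11 (limma adjusted P-value = 0.256). Mrpl12, whose copies bind the factors and which is also known to bind the mitochondrial RNA polymerase, read 778.8 ± 12.6 against 729.3 ± 37.2, a log2 fold change of 0.09 (limma adjusted P-value = 0.295). The MSN mice lay close together in Mrpl12, from 764.4 to 795.2, and the ICR mice spread from 684.0 to 773.2. Mrpl11 had a log2 fold change of 0.02, and the strain difference of no stalk gene passed.

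The other 4 large-subunit genes with an unadjusted P-value under 0.05 had higher means in MSN mice. Mrpl55, found in animal but not bacterial ribosomes, read 686.8 to 777.1 (median 729.5) in MSN and 626.6 to 699.2 (median 667.8) in ICR mice. MSN replicate 5 lay below ICR replicate 4, and this was the 1 pair of mice out of order. Its log2 fold change of 0.13 was the highest of the 77 genes (SE 0.0381, limma adjusted P-value = 0.153; two-sided exact permutation test, P-value = 0.00433). The exact P-value was not adjusted for the 77 genes, and Mrpl55 did not pass. Mrpl36, a small zinc-binding protein that joins the large subunit late, read 1003 to 1146 in MSN and 936.2 to 1051 in ICR mice. Mrpl30 read 741.3 to 835.0 against 690.0 to 775.9, and Mrpl3, which lies close to the site of peptide bond formation, read 1480 to 1620 against 1316 to 1515. The strains overlapped in all of them, and the log2 fold changes were 0.12, 0.11 and 0.10, with adjusted P-values of 0.240, 0.261 and 0.318 from limma.

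At the rim of the tunnel through which the new peptide leaves, 0 of 5 genes passed in limma and 0 had an unadjusted P-value under 0.05. Mrpl23 had a log2 fold change of 0.06 and Mrpl22 of -0.08. Of the 6 genes of the central protuberance of the large subunit, 0 passed and 0 had an unadjusted P-value under 0.05. Mrpl40 had the smallest P-value there, with 1609 ± 76.6 against 1543 ± 41.9 (SD, n = 6) and a log2 fold change of 0.06 (limma adjusted P-value = 0.544). Mrpl17, with a log2 fold change of -0.15, spread more widely than most members, from 1062 to 1400 in MSN and from 1127 to 1802 in ICR mice, and its adjusted P-value was 0.586.

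In the small subunit by symbol (Mrps), 16 of 29 genes lay above 0, the median log2 fold change was 0.01 and 0 genes passed in limma. This count includes Mrps18a, Mrps30 and Mrps36, which are placed elsewhere below. Mrps27, of the pentatricopeptide repeat family that binds RNA, had the lowest value and was the 1 small-subunit gene with an unadjusted P-value under 0.05. Its intensities were 459.6, 415.9, 454.4, 442.7, 454.9 and 457.1 in MSN mice and 502.9, 626.2, 482.4, 454.1, 552.3 and 580.9 in ICR mice. The MSN mice lay close together, and ICR replicate 4 was the 1 ICR mouse within their range. The means were 447.4 ± 16.5 and 533.1 ± 64.9 (SD, n = 6), a log2 fold change of -0.24 (SE 0.0665, limma adjusted P-value = 0.134; two-sided exact permutation test, P-value = 0.0108).

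Among the 15 small-subunit proteins with bacterial counterparts, 0 passed in limma and 0 had an unadjusted P-value under 0.05. Mrps16, whose human counterpart is mutated in a respiratory chain disorder, had the highest log2 fold change of the small subunit, 0.07 (834.1 to 918.4 in MSN and 776.8 to 870.0 in ICR mice, limma adjusted P-value = 0.418). Mrps12, a protein of the decoding center, had a log2 fold change of 0.03. Mrps28, which was in neither small-subunit list, gave the dimmest signal of the 77 probe sets. Its log2 fold change was -0.13, with 199.6 ± 15.0 against 220.1 ± 26.4 (SD, n = 6) and an adjusted P-value of 0.510 from limma. Of the 9 small-subunit proteins particular to mitochondria, Mrps27 had an unadjusted P-value under 0.05 and the other 8 did not.

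The S18 family has 3 members with separate genes, of which Mrps18b and Mrps18c serve the small subunit while Mrps18a is built into the large one. Their log2 fold changes were -0.01, 0.07 and 0.04, with standard errors of 0.0572, 0.0508 and 0.0420, so that each difference was within 2 standard errors. Mrps30 likewise is a protein of the large subunit despite its name, and its log2 fold change was 0.02. Mrps36, with 0.01, is known as a component of the alpha-ketoglutarate dehydrogenase complex rather than of the ribosome.

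The brightest probe sets were those of Mrpl42, Mrps21 and Mrpl57, with means over 12 mice of 2944, 2870 and 2507. Brightness depends on the probes, so it does not rank the transcripts. These 3 genes had log2 fold changes of -0.01, 0.00 and -0.02. Mrps21 spread from 2414 to 3310 in MSN and from 2477 to 3227 in ICR mice, which covers almost the same range in both strains. For the 8 members with a second cluster, the log2 fold change of that cluster ranged from -0.05 (Mrpl27) to 0.07 (Mrpl47), and 0 of these clusters passed in limma or had an unadjusted P-value under 0.05. RefSeq lists pseudogene copies of Mrpl23, Mrpl27, Mrpl48 and Mrps36, so their signals may include a copy.

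Within each mouse the members moved together to a small degree. The median member deviated from its own mean over 12 mice by -0.05 to 0.08 (log2) in the MSN mice and by -0.03 to 0.04 in the ICR mice, so the strains overlapped. MSN replicate 1 had the highest median and MSN replicate 6 the lowest, in both subunits for replicate 1 and in the large subunit for replicate 6. Over the 2926 pairs of members the median Pearson correlation of strain-centered log2 values was 0.217 across 12 mice, beside 0.0183 over all gene pairs, which share arrays and their scaling. Of the members 70 lay above the median mean of all clusters, and the gene pairs were not matched to them for brightness. The size depended on the scaling: in 2 alternatives chosen after seeing the data, the median over member pairs was 0.118 with quantile normalization and 0.428 with each array scaled to the same median.

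**Figure D3:**
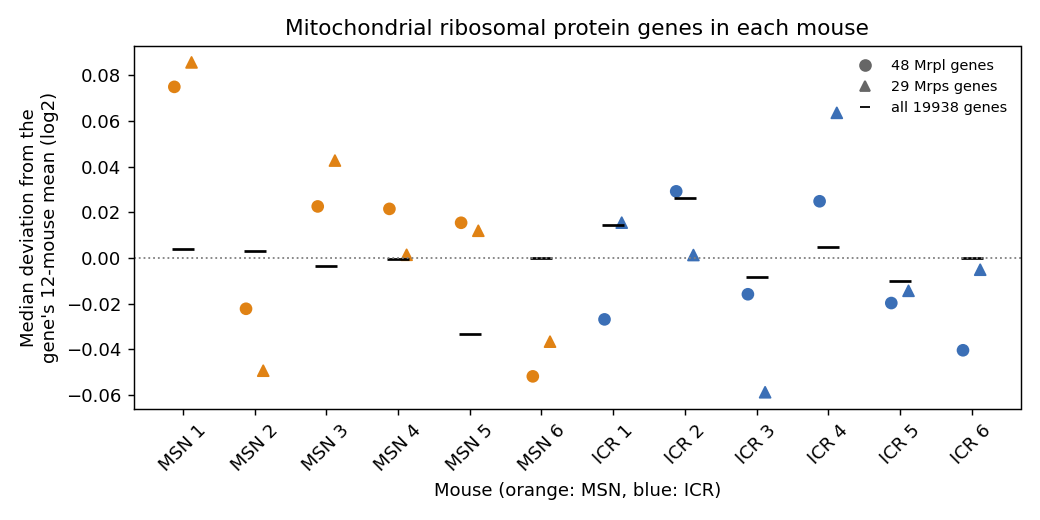
Median deviation of the 48 Mrpl genes (circles), the 29 Mrps genes (triangles) and all 19938 genes (bars) from each gene's mean over 12 mice, in log2 units (y axis), for each mouse (x axis; MSN in orange, ICR in blue). The Mrpl medians run from -0.05 to 0.07 in MSN and from -0.04 to 0.03 in ICR mice, so the strains overlap.

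The members most like Mrpl20 across the 12 mice, after centering on each strain, were Mrpl14 (r = 0.781), Mrpl3 (r = 0.532), Mrps16 (r = 0.520), Mrpl43 (r = 0.496) and Mrpl44 (r = 0.448). These are the 5 highest of 76 correlations. Mrpl14 showed no such strain difference, with a log2 fold change of -0.01 (limma adjusted P-value = 0.960). Its intensity was 434.0 in MSN replicate 2, the highest of its strain, as Mrpl20 was.

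The spread between mice was small in both strains. The median SD over members was 0.0739 (log2) in the inbred MSN and 0.0668 in the outbred ICR mice, against 0.0862 and 0.0853 over all genes, which were not matched for brightness. The SD was larger in ICR mice for 35 of 77 members (45.5%), against 50.5% of all genes. The strain with the larger SD in most members turned with the scaling, since this share was 55.8% with quantile normalization and 39.0% with each array scaled to the same median. Mrpl20 had the largest standard error of the 77 genes, 0.132, where the median was 0.0432.

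The members are spread over 17 chromosomes, with 11 on chromosome 11 and 8 on chromosome 17. Members that neighbor each other included pairs of the same and of opposite direction. On chromosome 17, Mrpl2, Mrps10, Mrpl14 and Mrps18a had log2 fold changes of -0.05, -0.05, -0.01 and 0.04. The closest pair, Mrpl46 and Mrps11 on chromosome 7, had -0.02 and 0.03. On chromosome 11, Mrpl38, Mrpl58 and Mrps7 had 0.06, 0.05 and 0.04. None of these passed in limma.

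Several other genes around Mrpl20 also had lower means in MSN mice. Of the 51 genes within 1250 kb of it, 5 had an unadjusted P-value of 0.01 or less and all 5 were lower, 9.80% of the window, while 4.41% of all placed genes reached this P-value, 2.66% in the downward direction. The median log2 fold change of the window was -0.03. Such a share was not particular to Mrpl20. Around the other named members it ran from 0% (Mrpl30) to 25% (Mrps28, 2 of 8 genes). It was 10.8% around Mrpl12 (8 of 74, 6 lower) and 11.3% around Mrps18b (12 of 106, 6 lower), neither of which passed. Mxra8, a cell adhesion protein also named limitrin, whose lower coordinate lies 36802 bases from that of Mrpl20, was the 1 neighbor that passed. Its intensities were 390.0, 371.0, 387.4, 389.4, 357.6 and 391.4 in MSN and 456.3, 582.2, 449.3, 505.3, 473.5 and 518.5 in ICR mice. Every MSN mouse lay below every ICR mouse, MSN replicate 2 included, and the log2 fold change was -0.37 (SE 0.0562, limma adjusted P-value = 0.010). Gm16008, B3galt6, Atad3aos and Agrn had log2 fold changes of -0.35, -0.21, -0.15 and -0.15, with adjusted P-values of 0.0527, 0.124, 0.208 and 0.194. The count of 5 became 3 when each array was scaled to the same median, 2 of them lower, and 2 of 32 when dim clusters were left out. It was 3 without MSN replicate 1, 3 or 5 or ICR replicate 4, 5 or 6, and 4 to 6 without any other array.

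**Figure D4:**
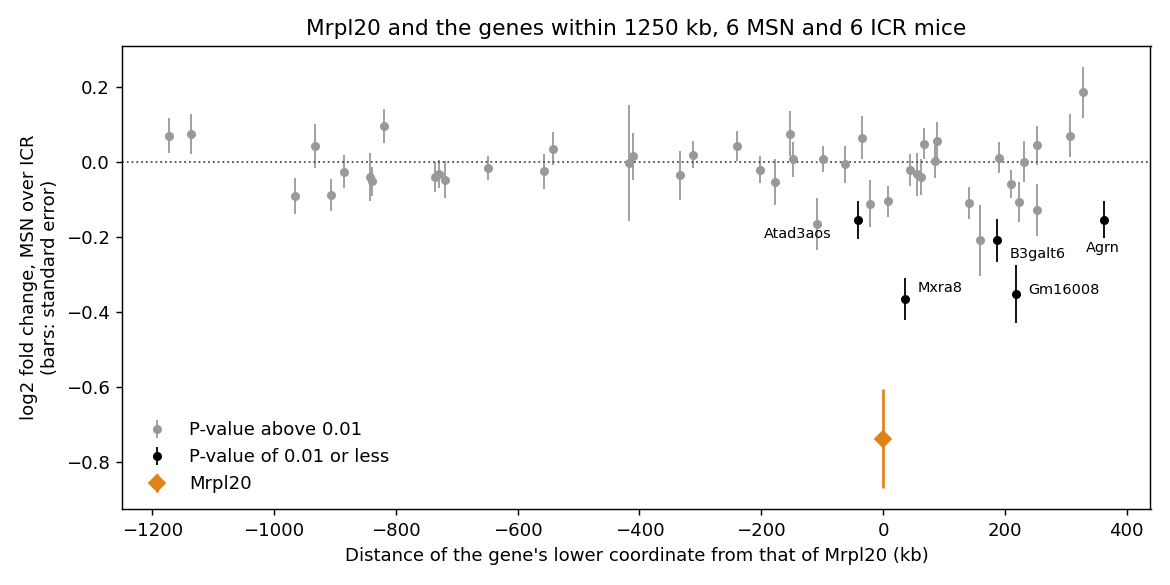
log2 fold change, MSN over ICR (y axis, bars are standard errors), of Mrpl20 (orange) and the 51 genes within 1250 kb, by the distance in kb of a gene's lower coordinate from that of Mrpl20 (x axis). Black genes had an unadjusted P-value of 0.01 or less, all of them lower in MSN mice, and Mrpl20 lies below all its neighbors.

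The other genes of mitochondrial translation showed no called change, with gene lists written with earlier results of these data known. Mitochondrial ribosomal proteins with other names were Dap3, a GTP-binding protein of the small subunit also known from cell death, with a log2 fold change of 0.15 (limma adjusted P-value = 0.523), Chchd1 with 0.05, Gadd45gip1 and Ptcd3. Of 15 measured mitochondrial translation factors, limma called 0 and 1 had an unadjusted P-value under 0.05. This was Mrrf, which recycles the ribosome after termination, with 0.12 (limma adjusted P-value = 0.371). Of 24 genes of ribosome assembly and rRNA modification, limma called 0 and 2 had an unadjusted P-value under 0.05. Noa1, a GTPase of small-subunit assembly, had 0.19 (665.1 ± 73.2 against 576.9 ± 17.3, SD, n = 6, limma adjusted P-value = 0.184) and Mpv17l2, a membrane protein of ribosome assembly, had -0.15 (limma adjusted P-value = 0.386).

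Of 19 genes that charge mitochondrial tRNAs, limma called 0, with 2 higher and 2 lower at an unadjusted P-value under 0.05. Gatc, a subunit of the amidotransferase that makes glutaminyl-tRNA, read 1915 ± 98.4 against 1713 ± 60.3 (SD, n = 6), a log2 fold change of 0.16 (limma adjusted P-value = 0.0925). Vars2, the valyl-tRNA synthetase, had 0.11 with every MSN mouse above every ICR mouse (limma adjusted P-value = 0.135), and Hars2, the histidyl-tRNA synthetase, had -0.09. Of 9 genes of mitochondrial DNA transcription and replication, 0 were called and 0 had an unadjusted P-value under 0.05, and the same held for 10 markers of mitochondrial content.

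Among 8 regulators of mitochondrial biogenesis limma called 0, and 2 were lower at an unadjusted P-value under 0.05. Both are coactivators, Ppargc1b with a log2 fold change of -0.12 (limma adjusted P-value = 0.333) and Ppargc1a with -0.08 (limma adjusted P-value = 0.367). Of the 13 proteins that mitochondrial DNA encodes, 2 could be matched to a cluster of the platform. ND3, a subunit of complex I, had a log2 fold change of -0.11 (limma adjusted P-value = 0.286), and COX2, a subunit of complex IV, had -0.06 (limma adjusted P-value = 0.563).

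**Figure D5:**
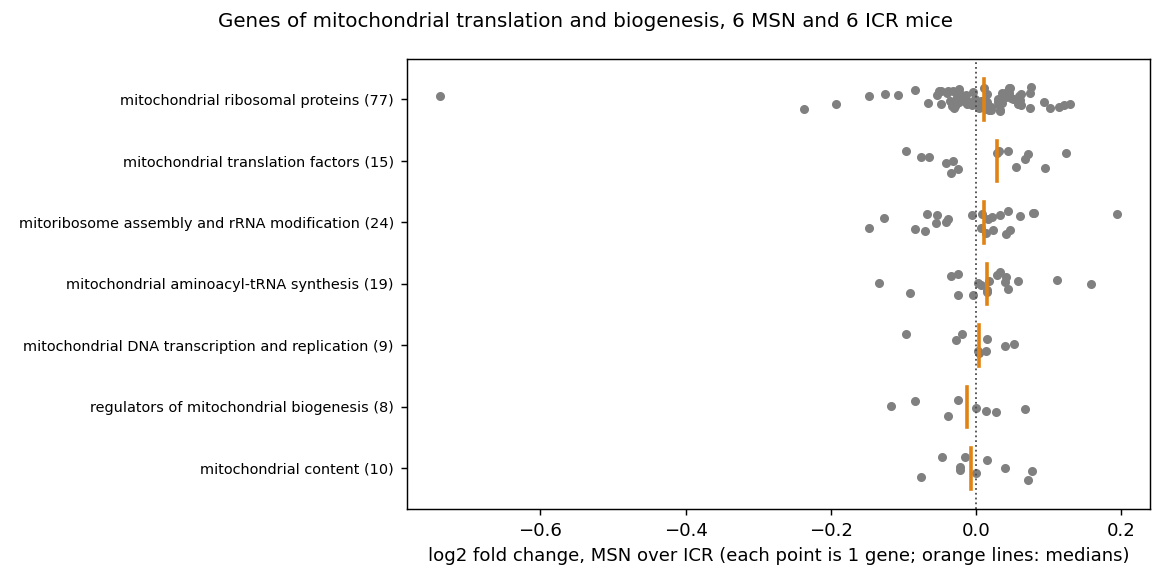
log2 fold change, MSN over ICR (x axis), of genes in 7 lists of mitochondrial translation and biogenesis (y axis, measured genes in parentheses). Each point is 1 gene and orange lines are medians, which lie between -0.01 and 0.03 in every list.

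In the gene groups most like these, limma called no gene. Of 59 cytosolic ribosomal protein genes 8 were higher and 2 lower at an unadjusted P-value under 0.05, 16.9% of the group beside 11.7% of the members, 1 gene had complete separation of the strains, and the median log2 fold change was 0.02. Of 77 genes of the respiratory chain and ATP synthase, the complexes that the mitochondrial ribosome serves, 1 was higher and 3 lower at this threshold, with a median of 0.01. The medians of these groups and of the members lay within 0.01 of each other, and the differences between groups were not tested.

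The arrays were alike: median intensities ran from 270.2 to 298.0, and Pearson correlations of log2 values from 0.988 to 0.995 within a strain and from 0.988 to 0.993 between strains. Neuron markers were bright in every mouse, the lowest of 8 genes never below 1423, and limma called 0 of them, although Stmn2 was lower in every MSN than in every ICR mouse (log2 fold change -0.17, limma adjusted P-value = 0.0570). Of 7 astrocyte markers limma called 0, but 4 had an unadjusted P-value under 0.05. Gfap, Aqp4 and Slc1a2 had log2 fold changes of -0.30, -0.23 and -0.11, the last without overlap of the strains, and Aldh1l1 had 0.19. The summed astrocyte intensity was 21300 to 23770 in MSN and 23570 to 25800 in ICR mice. Oligodendrocyte markers lay above 0 in 6 of 6 genes, with 0 called and 2 at an unadjusted P-value under 0.05, and sums of 19870 to 23280 against 19300 to 21690. In choroid plexus, a tissue beside the hippocampus, 7 of 7 markers lay above 0 with 0 called, and their summed intensity was 9203 to 22160 in MSN and 7619 to 22130 in ICR mice. Of 8 markers of CA pyramidal cells 7 lay above 0 and Bok passed, with sums of 9790 to 12380 against 8905 to 10810, and Pdgfra passed among 5 markers of oligodendrocyte precursors, all above 0, with sums of 4712 to 5202 against 4460 to 4880. No gene of either strain read 0 in these lists, and their part in the values of the members was not tested.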

How the data were processed

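RNA of hippocampus from 6 MSN and 6 ICR mice was measured, 1 array for each mouse, and mice were grouped by the strain in their labels. The deposited intensity values, 1 linear value per transcript cluster and array, were summarized by the authors with PLIER in Affymetrix Power Tools 1.12.0, with a GC-bin correction for background. Probe-level values were not analysed here. Of 35556 clusters 23410 name a gene in the platform annotation and 21789 name 1 gene. All 77 members were matched by gene ID to RefSeq (GRCm38.p6).

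To each intensity 16 was added and log2 was taken, which understates the change of dim genes. Strain was the single term of a linear model, fitted by lmFit and eBayes of limma 3.58.1 (R 4.3.3), with Benjamini-Hochberg adjustment over 23410 clusters. A gene was called at an adjusted P-value under 0.05. Means and SDs are of linear intensities. The exact permutation test compared log2 means, two-sided, and its P-values were not adjusted for the number of genes. Array number limits the precision, and no scan dates or batches are given in the sources used here.

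The members and gene lists were chosen with earlier results of these data known. Named members were those called or with an unadjusted P-value under 0.05, the 5 highest and 5 lowest log2 fold changes, the 3 brightest and 3 dimmest, the S18 family and the smallest P-value of each structural list. From other lists up to 3 genes with the smallest P-values were named, and any others were named after their values were seen. The neighborhood of Mrpl20 was examined after its value was seen.

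Alternatives were pseudocounts of 1 and 64, intensities without a log, scaling to the same median, quantile normalization, trended and robust eBayes, clusters above the median mean, a block for the replicate number, all clusters, array weights, the leaving out of each array and 1 cluster per gene. The replicate numbers carry no stated pairing, and the mice were drawn at random within each strain.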

Additional observations from a re-analysis of the deposited data

Results flagged for a closer look

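Of 60 sets of 6 mice (the log2 values of the named members and of 8 other named genes in each strain) examined with Dixon's test at the 95% level, 1 had a mouse far from the others, and chance alone flags about 1 in 20 sets. This was Mrpl20 in MSN mice, where replicate 2 read 727.1 and the other 5 mice read 409.5 to 469.0. On the log2 scale the gap to the nearest mouse took 0.765 of the whole range, above the critical value for 6 mice. The same mouse was not apart from its strain in Mxra8, the called gene nearest to Mrpl20, where it read 371.0 within a range of 357.6 to 391.4.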

How the results depend on the processing

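The count of called members was 1 (Mrpl20) in the reported setting, 0 with untransformed intensities and with the replicate block, and 0 to 1 when each array was left out. Mrpl20 had a log2 ratio of -0.74 (adjusted P-value = 0.0523) with untransformed intensities and -0.74 (adjusted P-value = 0.0769) with the replicate block, and -0.86 to -0.70 (adjusted P-value 0.00218 to 0.0523) when each array was left out. The other settings kept its call (adjusted P-value 0.0101 to 0.0399). The large-subunit list with bacterial counterparts, which holds Mrpl20, followed it, with 0 called with untransformed intensities and with the replicate block and 0 to 1 with arrays left out. In the list for mitochondrial tRNA charging 1 gene was called with untransformed intensities, with trended and robust eBayes and with clusters above the median mean, and 0 to 1 with arrays left out. This was Vars2 with untransformed intensities (adjusted P-value = 0.0432) and Gatc otherwise (adjusted P-value = 0.0459 with trended and robust eBayes, 0.0445 with clusters above the median mean and 0.0459 without MSN replicate 6, the 1 array whose removal gave a call). The replicate numbers did not pair the mice: the correlation of same-numbered mice ran from -0.126 to 0.125, and 1 of 6 MSN mice correlated best with its own number.

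Signs turned for members near 0. With each array scaled to the same median the log2 fold changes were 0.00656 (Mrpl57), 0.025 (Mrps21), 0.012 (Mrpl42) and 0.013 (Mrps18b), and with array weights 0.015 (Mrps21), 0.00384 (Mrpl42) and 0.000637 (Mrps18b). With arrays left out they ran from -0.044 to 0.047 (Mrps21), -0.040 to 0.018 (Mrpl42), -0.037 to 0.037 (Mrps18b), -0.046 to 0.00399 (Mrpl57) and -0.00105 to 0.057 (Mrps12). The cause of these changes was not tested. Counted in the shorter window before the start, ETS/GABP letters stood in 25.0% of members (7.83% of all genes) and YY1 letters in 5.88% (1.83%). Leaving out dim clusters tested 11705 clusters and 70 members. The members' median log2 fold change was -0.008 to 0.023 with arrays left out and 0.006 to 0.036 in other settings, and the count at an unadjusted P-value under 0.05 was 8 to 10.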
